A study of Citrus sinensis with 72 samples.

Results

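The segment membrane (SM) of the ‘Fengjie 72-1’ navel orange (Citrus sinensis) was compared between Stage 4, labelled 150 days after flowering (DAF), and Stage 5, labelled 180 DAF. The study's methods give a slightly later day for Stage 4. The comparison used 6 of the 72 RNA-seq libraries of a fruit atlas of 4 tissues and 6 stages: 3 replicates of SM4 and 3 of SM5. These 6 libraries are all the SM libraries of the 2 stages, and 15371 of 30940 genes, those with an FPKM of at least 1 in 3 of the 6, were tested. FPKM is the number of sequenced fragments of a gene scaled to the length of the gene and to all fragments of the library. The other tissues were the epicarp (EP), the albedo (AL) and the juice sac (JS). All fruit came from trees of this cultivar, grafted on Poncirus trifoliata in a single orchard. The SM was dissected by hand, and fruits of several trees were pooled as 1 replicate, so a library is a mixture of fruits and of the cell types of the dissected membrane. The tissues were dissected from the fruit of a stage, so that libraries of different tissues at a stage may share fruit.

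The segment membrane is the thin wall around each segment of the fruit. Its vascular bundles bring sugars towards the juice sacs, and its cell walls contribute to how chewy the flesh is. Stage 4 is the end of fruit expansion and Stage 5 is the colouring period, when an orange loses chlorophyll, gains carotenoids and goes on storing sugar. The question of the comparison was which genes change in the membrane over this step. The genes are named by the identifiers of the deposited table, since 0 of the 30940 identifiers matched the reference gene table used here, so no role is given for any of them.

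The 6 libraries held between 15876420 and 20767955 fragments in genes, as recovered from the steps of the FPKM values. The SM5 replicates were more alike than the SM4 replicates: the Pearson r of log2(FPKM + 1) over the tested genes was 0.980 to 0.990 within SM5 and 0.942 to 0.972 within SM4. SM4 replicate 1 stood closer to SM5 replicate 1 (r = 0.945) than to SM4 replicate 2 (r = 0.942). By the study's quality table, SM4 replicate 1 also had the lowest RNA integrity number of the 6, and the part of RNA quality in the results was not tested. As a check of the tissue label, 11 genes were taken that were at least 2 log2 higher in the SM than in each other tissue over the libraries of Stages 1, 2, 3 and 6, with a mean of at least 5 FPKM. Together they took 0.0757% to 0.122% of all FPKM in the SM4 libraries and 0.0502% to 0.0784% in SM5. The highest other library of Stage 4 had 0.0363% and that of Stage 5 had 0.0199%, so each SM library stood above all libraries of the other tissues at these stages. Cs1g17500 and Cs5g17820 made up 91.3% to 98.0% of these sums in the SM. The other 9 genes took 0.00178% to 0.00655% of all FPKM in the 6 SM libraries and at most 0.000761% in those of the other tissues.

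A total of 2907 differentially expressed genes were found in SM5 vs. SM4, or 18.9% of the genes tested, at an adjusted p under 0.05 (limma with Benjamini-Hochberg adjustment over the 15371 genes). Of these, 1406 were higher in SM5 (9.15% of the genes tested) and 1501 were lower (9.77%). The median log2 fold change was 0.99 among the higher and -0.98 among the lower genes, against -0.13 over all tested genes. A change of at least 2-fold was seen in 689 higher and 719 lower genes, together 9.16% of those tested. Changes of at least 2 on the log2 scale were found in 106 higher and 101 lower genes, and changes of at least 3 in 11 higher and 7 lower. The SM4 and SM5 libraries did not overlap for 2905 of the 2907 genes. The same held for 39.4% of all tested genes, called or not.

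**Figure D1:**
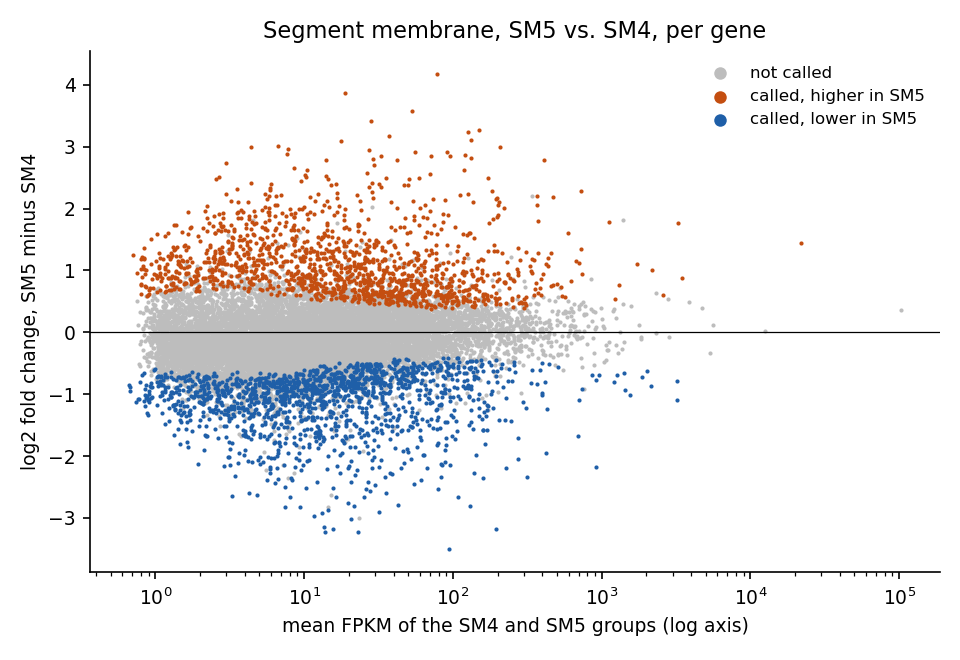
Each point is 1 of the 15371 tested genes. The x axis is the mean FPKM of the SM4 and SM5 groups (log axis) and the y axis the log2 fold change, SM5 minus SM4, with the 1406 called higher genes in orange, the 1501 called lower genes in blue and the others in grey. Most called changes were within 2 log2 in either direction.

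The called genes took a larger place in the SM5 transcriptome when they rose and a smaller one when they fell, as the choice of the genes fixes. The size of that shift is a description: the higher genes held 9.66% ± 0.43 of all FPKM in SM4 and 19.4% ± 0.72 in SM5, and the lower genes 13.9% ± 0.73 and 6.42% ± 0.44 (SD, n = 3). Genes at a high level were called more often. Of the genes whose higher group mean was at least 200 FPKM, 34.3% were called, against 13.2% of those under 5 FPKM. The number of genes with an FPKM of at least 1 was 15295 ± 472 in SM4 and 14913 ± 225 in SM5 (SD, n = 3), which is within the spread of the SM4 replicates.

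Few genes were switched from a silent to a clear level or back. An FPKM under 1 in every SM4 library and of at least 5 in every SM5 library was found for 2 genes, and the reverse for 2 genes. They are named here because there are so few, after their values were seen. In orange1.1t01983 the FPKM was 0.176, 0.0793 and 0.179 in SM4 and 5.58, 12.9 and 7.37 in SM5, a log2 fold change of 3.00 ± 0.28 (standard error, as in all later fold changes; adjusted p = 0.000808 from limma). Cs1g22200 went from 0.835, 0.347 and 0.958 to 8.48, 8.82 and 6.99 (2.42 ± 0.22, adjusted p = 0.000779 from limma). Neither gene was specific to the membrane, since the AL5 means were 9.14 FPKM for orange1.1t01983 and 25.7 FPKM for Cs1g22200. Both were still higher at Stage 6 of the SM, at 44.2 and 12.9 FPKM.

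Of the 2 genes that went the other way, Cs5g09750 had 5.10, 6.998 and 6.95 FPKM in SM4 and 0.491, 0.199 and 0.707 in SM5 (log2 fold change -2.33 ± 0.22, adjusted p = 0.000808 from limma). Its JS mean was lower as well, from 6.27 to 0.604 FPKM. Cs9g10570 had 6.53, 7.60 and 10.04 FPKM in SM4 and 0.602, 0.366 and 0.496 in SM5 (-2.59 ± 0.22, adjusted p = 0.000637 from limma). Its mean was 30.02 FPKM in SM3 and at most 0.0740 FPKM in the other 3 tissues at Stages 4 and 5, so among the groups of these 2 stages its mean was above 1 FPKM in SM4 alone. Of the 15371 tested genes, 160 were under 1 FPKM in every SM4 library and at least 1 in every SM5 library, and 193 crossed 1 FPKM downward. These 2 counts required no call and no size of change, so a gene could go from just under 1 FPKM to just over it. They are not counts of switched genes, and 39.4% of all tested genes had no overlap between the groups.

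Among genes with a group mean of at least 10 FPKM, the highest fold changes were those of Cs6g12880 and Cs7g32150. Cs6g12880 had 10.9, 5.88 and 5.86 FPKM in the SM4 libraries and 139.8, 177 and 129 FPKM in the SM5 libraries. The SM5 mean was 19.7 times the SM4 mean, and the log2 fold change, which the pseudocount of 1 draws towards 0, was 4.17 ± 0.24 (adjusted p = 0.000405 from limma). Cs7g32150 had 1.31, 1.24 and 1.77 FPKM in SM4 and 34.9, 51.2 and 22.8 FPKM in SM5. The ratio of its means was 25.2 and its log2 fold change 3.87 ± 0.29 (adjusted p = 0.000449 from limma). In both genes the lowest SM5 library was more than 10 times the highest SM4 library.

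Both genes belonged to the ripening end of the series. In the SM, the mean FPKM of Cs6g12880 was 0.00938 ± 0.016 at Stage 1 and 0.0153 ± 0.013 at Stage 2, then 2.74 ± 0.80, 7.55 ± 2.90, 149 ± 25.4 and 356 ± 38.4 from Stage 3 to Stage 6 (SD, n = 3). The step from Stage 4 to 5 was the largest of its steps between neighbouring stages on log2(FPKM + 1), and the mean was higher again at Stage 6. Cs7g32150 was at 3.28 ± 3.13, 0.520 ± 0.21, 1.10 ± 0.34, 1.44 ± 0.29, 36.3 ± 14.3 and 74.6 ± 5.07 FPKM over the 6 stages (SD, n = 3). Its means were low at Stages 1 to 4, and the SM5 mean was above all of them.

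The lowest fold changes were those of Cs5g25690 and Cs8g14700. Cs5g25690 had 184, 150.3 and 183 FPKM in SM4 and 20.1, 9.56 and 14.9 FPKM in SM5. Its SM4 mean was 11.6 times its SM5 mean (log2 fold change -3.50 ± 0.24, adjusted p = 0.000405 from limma). It had been at 764 ± 101 FPKM in SM3 and ended at 0.203 ± 0.12 FPKM in SM6 (SD, n = 3), so its mean was lower at each of the last 3 stages. Cs8g14700 had 27.9, 68.9 and 31.7 FPKM in SM4, with replicate 2 apart from the other two, and 3.87, 2.95 and 3.12 FPKM in SM5. The ratio of its means was 12.9 (log2 fold change -3.23 ± 0.32, adjusted p = 0.00103 from limma). Its level was like that of SM4 already at Stage 3 (36.8 ± 18.4 FPKM) and stayed low at Stage 6 (2.04 ± 0.88 FPKM).

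**Figure D2:**
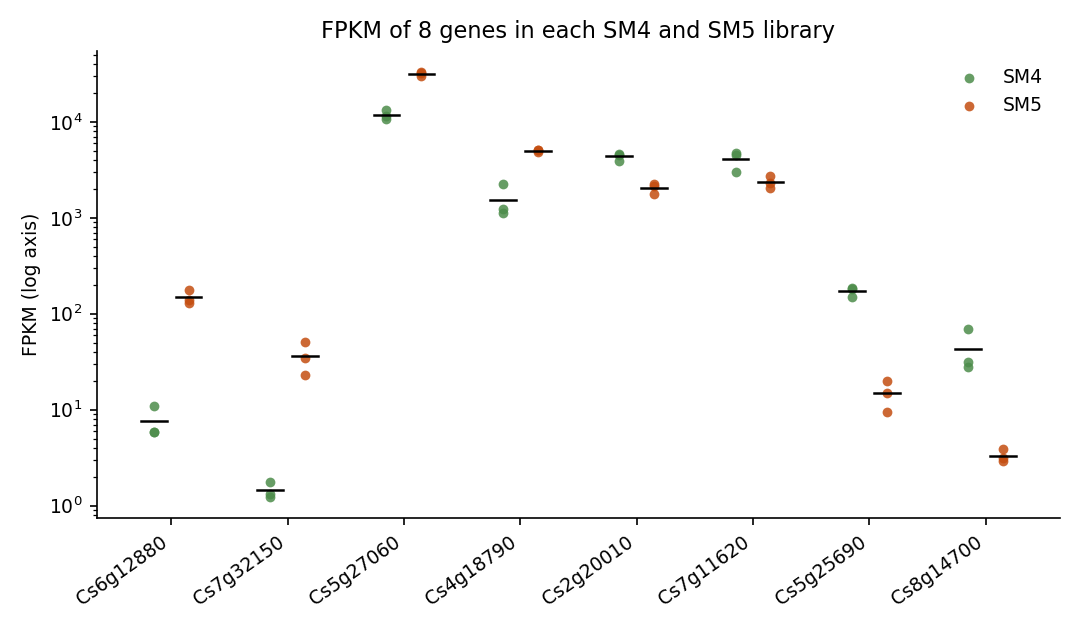
FPKM (log axis) of 8 called genes in each SM4 library (green) and SM5 library (orange), with black bars at the group means. From left to right are the 2 highest fold changes, the 2 largest rises in FPKM, the 2 largest falls in FPKM and the 2 lowest fold changes, and in each of the 8 genes the groups do not overlap.

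Among called genes, the largest rise in units of FPKM was in Cs5g27060, a short gene of 408 bases by the length implied in the FPKM values. It had 10621, 11589 and 13239 FPKM in SM4 and 29904.5, 33127 and 32667 FPKM in SM5, a log2 fold change of 1.44 ± 0.15 (adjusted p = 0.00104 from limma). Its mean had been between 6269 and 7961 FPKM over Stages 1 to 3 and was 36425 FPKM at Stage 6, so most of its rise fell between Stages 4 and 5. Cs4g18790 had 2228, 1118 and 1242 FPKM in SM4 and 5072, 5096 and 4806 FPKM in SM5 (1.77 ± 0.25, adjusted p = 0.00295 from limma). SM4 replicate 1, the library that stood closest to SM5, had the highest SM4 value of this gene. The gene with the highest mean of all, Cs1g07330 (207 bases), had 94825, 70316 and 104345 FPKM in SM4 and 132790, 132331 and 84118.5 FPKM in SM5. Its mean was 26584 FPKM higher in SM5, more than the 20083 FPKM of Cs5g27060, but its groups overlapped and the difference did not pass the test (0.36 ± 0.24, adjusted p = 0.309 from limma).

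The largest falls in FPKM among called genes were in Cs2g20010 and Cs7g11620. Cs2g20010 went from 4505, 3953 and 4661 FPKM to 2157, 1764 and 2258 FPKM (log2 fold change -1.09 ± 0.15, adjusted p = 0.00269 from limma). Cs7g11620 went from 4724, 3037 and 4552 FPKM to 2718, 2314 and 2040.3 FPKM (-0.78 ± 0.20, adjusted p = 0.0312 from limma). Both genes peaked at Stage 2 of the SM, at 12241 ± 1239 and 8435 ± 533 FPKM (SD, n = 3), and the change from SM4 to SM5 continued a fall. The call of Cs7g11620 was lost when any 1 of the libraries other than SM4 replicate 2 was left out, and with median-ratio scaling (adjusted p = 0.177 from limma).

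**Figure D3:**
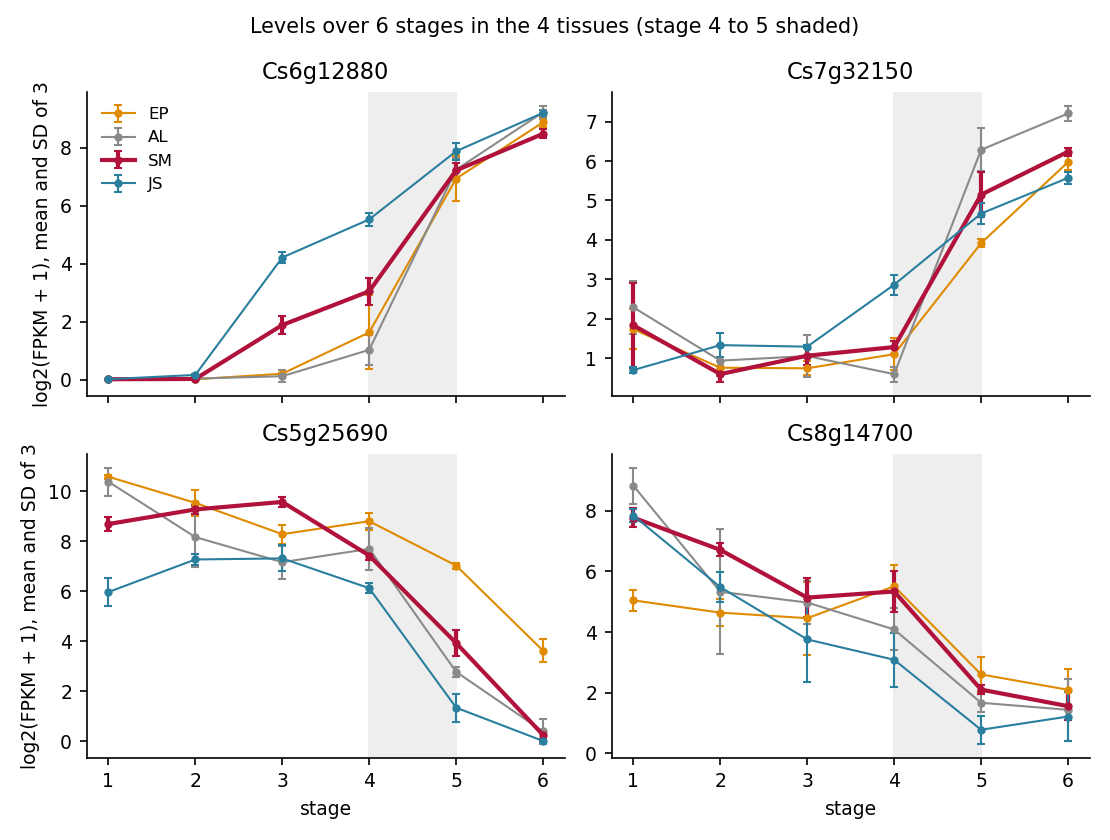
Mean log2(FPKM + 1) with SD of 3 replicates over Stages 1 to 6 (x axis) in the EP, AL, SM and JS, for the 2 genes with the highest and the 2 with the lowest fold change in SM5 vs. SM4. The step from Stage 4 to 5 is shaded, and in each of the 4 genes all 4 tissues moved in the same direction over it.

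The count of called genes rested on single libraries. Without SM4 replicate 1 there were 4610 called genes, of which 64.7% were lower in SM5, against 51.6% with all 6 libraries. Without SM4 replicates 2 and 3 there were 2596 and 1854 genes. Without SM5 replicates 1, 2 and 3 there were 1340, 1093 and 1863 genes. A set of 1032 genes, 552 higher and 480 lower, was called with all 6 libraries and in each of the 6 fits with a library left out. With median-ratio scaling, in which every library is brought to the same median ratio to a library of geometric means, the median log2 fold change of the tested genes moved from -0.13 to -0.01. Under it 3094 genes were called, 58.0% of them higher in SM5, in place of 48.4% with FPKM as deposited, so which direction held more genes depended on the scaling.

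**Figure D4:**
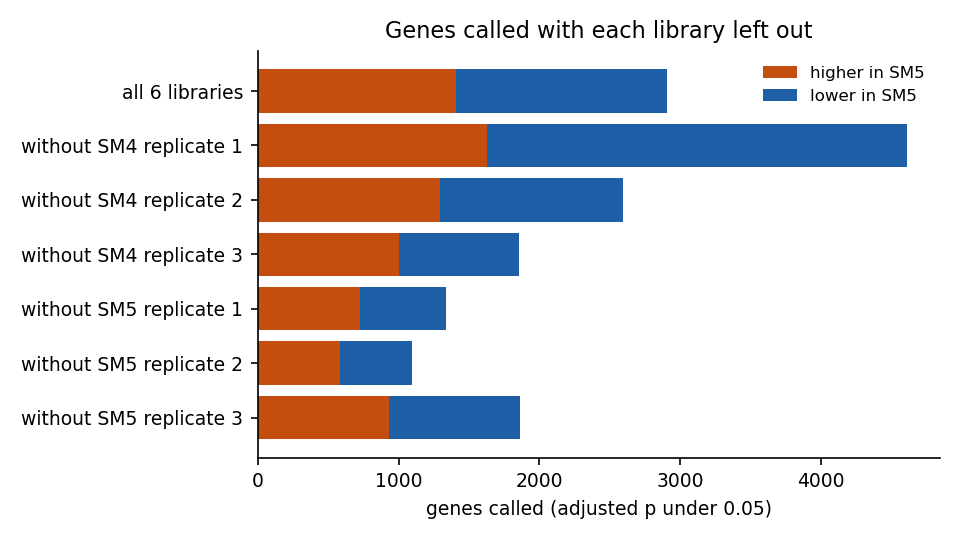
Number of genes called (x axis, adjusted p under 0.05) with all 6 libraries and with each library left out, higher in SM5 in orange and lower in blue. The total runs from 1093 without SM5 replicate 2 to 4610 without SM4 replicate 1.

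To place the change from Stage 4 to 5 within the late development of the membrane, genes were listed from SM3 and SM6, whose libraries take no part in SM5 vs. SM4. There were 1238 late-rising genes, at least 1 log2 higher in SM6 than in SM3 with no overlap and a mean of at least 5 FPKM in SM6, and 1548 late-falling genes by the reverse rule. Of the late-rising genes 1232 were tested, of which 685 (55.6%) were called higher in SM5 and 7 lower, with a median log2 fold change of 0.78. Of the late-falling genes 1518 were tested, of which 677 (44.6%) were called lower and 15 higher, with a median of -0.69. Over all tested genes 9.15% were called higher and 9.77% lower, and the median was -0.13.

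The lists also show how the late change was spread over its 3 steps. In the median late-rising gene, 40.4% of the log2 change from SM3 to SM6 fell between Stages 3 and 4, 46.7% between Stages 4 and 5 and 11.9% between Stages 5 and 6. In the median late-falling gene the steps held 33.1%, 41.4% and 27.1%. In both lists the step from Stage 4 to 5 held the highest median share of the 3, with wide quartiles (25.9% to 68.3% for the late-rising and 21.5% to 62.6% for the late-falling genes). Stages 3 to 6 are labelled 120, 150, 180 and 220 DAF, so the steps differ in length and the shares are not rates per day. From the other side, 48.7% of the genes called higher in SM5 were late-rising, against 8.02% of all tested genes, and 45.1% of those called lower were late-falling, against 9.88%. The most abundant members of these lists were Cs1g07330 and Cs5g27060 among the late-rising and Cs7g11620 and Cs2g20010 among the late-falling genes, with the values given above.

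Genes typical of the other tissues were followed as well, since the membrane borders on the albedo and on the juice sacs. The lists hold genes at least 2 log2 higher in a tissue than in each other tissue over Stages 1, 2, 3 and 6, with a mean of at least 5 FPKM. Of 482 EP-enriched genes, 253 were under 1 FPKM in all 6 SM libraries and 186 were tested. Among those tested, 70 (37.6%) were called higher and 8 (4.3%) lower, against 9.15% and 9.77% of all tested genes. A gene could enter the test through its SM5 level alone, and with no filter the median log2 fold change of the list was 0.10. Together the 482 genes took 0.139% to 0.153% of all FPKM in SM4 and 0.197% to 0.269% in SM5, so the groups did not overlap. In the EP itself they took 6.67% ± 0.56 in EP4 and less, 4.82% ± 0.11, in EP5 (SD, n = 3). The rise was not particular to the SM. In the AL the share went from 0.344% ± 0.056 to 0.481% ± 0.051 without overlap. In the JS it was 0.277% ± 0.037 and then 0.342% ± 0.045, with overlap. The part of EP transcripts in the results of the SM was not tested.

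The 2 most abundant EP-enriched genes in the SM went in opposite directions. Cs9g07680 had 115, 99.9 and 78.3 FPKM in SM4 and 206, 257 and 197 FPKM in SM5 (log2 fold change 1.17 ± 0.18, adjusted p = 0.00397 from limma). Cs9g02190 had 192, 206 and 169 FPKM in SM4 and 76.8, 54.9 and 67.9 FPKM in SM5 (-1.50 ± 0.16, adjusted p = 0.00109 from limma). In the EP over the same stages Cs9g02190 rose from 2192 ± 380 to 5286 ± 1125 FPKM (SD, n = 3). The difference between the 2 changes was -2.76 ± 0.26 (adjusted p = 8.83e-05 from limma).

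The lists for the tissues that touch the membrane were short. All 5 AL-enriched genes were tested, 2 (40%) were called higher and none lower, against 9.15% and 9.77% of all tested genes, and the summed level was 0.0233% to 0.0443% of all FPKM in SM4 and 0.0341% to 0.0414% in SM5. Of these, Novel00378 had 61.5, 38.4 and 69.7 FPKM in SM4 and 109.9, 99.7 and 86.1 in SM5 (log2 fold change 0.83 ± 0.22, adjusted p = 0.0352 from limma), a call lost without any single SM5 replicate. Cs3g03335 had 77.8, 122.8 and 219 FPKM in SM4 and 92.9, 107 and 144 in SM5 (-0.18 ± 0.34, adjusted p = 0.734 from limma). Of 28 JS-enriched genes, 25 were tested, 7 (28%) were called higher and none lower, against the same 9.15% and 9.77%, and the summed level was 0.0683% to 0.109% in SM4 and 0.0956% to 0.106% in SM5. The summed levels of both lists overlapped between the groups.

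The 2 most abundant JS-enriched genes did not pass the test in the SM. Cs3g16700 had 157, 264 and 215 FPKM in SM4 and 241, 226 and 262 FPKM in SM5 (log2 fold change 0.23 ± 0.19, adjusted p = 0.425 from limma). The values for orange1.1t00275 were 68.0, 131 and 114.6 FPKM in SM4 and 64.02, 64.4 and 68.4 FPKM in SM5 (-0.61 ± 0.23, adjusted p = 0.0981 from limma), and it passed without SM4 replicate 1 (adjusted p = 0.00465) and in a single fit of the 18 SM libraries (adjusted p = 0.0267).

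Of the 11 SM-enriched genes themselves, 4 were tested and 4 were under 1 FPKM in all 6 libraries, so most of the genes that marked the membrane at other stages did not pass the filter on low values. Cs1g17500 had 708, 488 and 394 FPKM in SM4 and 369.9, 246 and 283 FPKM in SM5 (log2 fold change -0.80 ± 0.24, adjusted p = 0.0496 from limma). This was the single SM-enriched gene called, with a p next to the threshold, and 10 alternatives took it past 0.05, among them median-ratio scaling (adjusted p = 0.18). Over development it had risen from 17.6 FPKM in SM2 to 530 ± 161 in SM4 and was at 184.5 in SM6. Cs5g17820 had 140.1, 118 and 117.5 FPKM in SM4 and 219.96, 132.7 and 148 FPKM in SM5 (0.38 ± 0.20, adjusted p = 0.207 from limma), and its mean was between 125 and 263 FPKM at all 6 stages of the SM.

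The same step was then compared with that of the other tissues. Of the 1322 genes called higher in SM5 and also tested in JS5 vs. JS4, 654 (49.5%) were called higher there as well and 3 lower, where 6.63% of all genes tested in the JS were called higher. In the AL, 728 of 1288 (56.5%) were also called higher and 10 lower, against 11.6% of all genes tested. In the EP, 645 of 1284 (50.2%) were also called higher and 70 lower, against 11.1%. In either direction, 15% of all genes tested were called in the JS, 22% in the AL and 30.7% in the EP. The genes called higher in the membrane were thus called higher in each other tissue more often than tested genes in general.

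The genes called lower in SM5 gave similar shares. In the JS 658 of 1355 (48.6%) were also called lower and none higher, against 8.4% of all genes tested. In the AL 679 of 1403 (48.4%) were also called lower and 3 higher, against 10.4%, and in the EP 725 of 1376 (52.7%) were also called lower and 10 higher, against 19.6%. Seen from the other tissues, the genes shared with the SM made up 65.7% of the higher and 52.1% of the lower genes of the JS, 40.1% and 41.8% of those of the AL, and 34.9% and 22.3% of those of the EP. In the SM, 9.15% of all genes tested were called higher and 9.77% lower. The lists behind these shares differ in size, with 995 higher and 1262 lower genes in the JS, 1817 and 1625 in the AL, and 1846 and 3255 in the EP.

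Whether a gene changed differently in the SM was tested by the difference of the 2 changes, SM5 minus SM4 less the same step in the other tissue, with limma on the 12 libraries of each pair of tissues. The 3 pairs share the SM libraries, and the fit took the libraries of the tissues as separate samples although same-numbered ones may come from the same fruit. The difference was called for 30 of 16148 genes (0.186%) against the JS, 499 of 16473 (3.03%) against the AL and 1670 of 17550 (9.52%) against the EP. The count at an unadjusted p under 0.05 was 1355 of the 16148 genes against the JS. A share of 0.05 would be expected there with no difference in any gene. The median standard error of a difference against the JS was 0.30 on the log2 scale, so the small count of called genes does not show that the 2 tissues changed alike. A gene could enter this test through a single tissue. Where it was near 0 FPKM in the other, the pseudocount drew that change towards 0, and its difference rests mostly on its change in the first. Of the called genes, 21 of 30 against the JS, 390 of 499 against the AL and 1004 of 1670 against the EP passed the filter in each of both tissues. When only such genes were tested, 16, 336 and 805 were called. Over genes tested in both tissues, the Pearson r of the log2 fold changes was 0.79 with the JS (14450 genes), 0.62 with the AL (14775) and 0.54 with the EP (14532). These are descriptions across genes, which are not independent replicates.

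**Figure D5:**
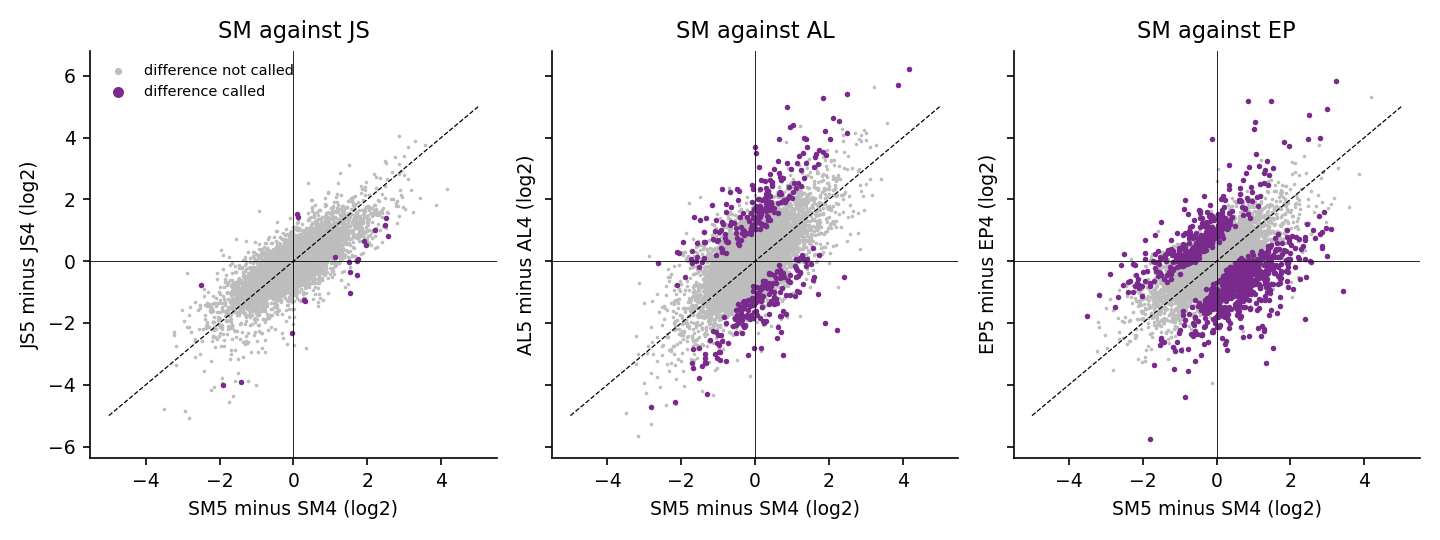
Log2 fold change from Stage 4 to 5 in the SM (x axis) and in the JS, AL or EP (y axis), 1 point per gene tested in both, with a dashed line where the changes are equal and purple points where the difference was called. Purple points are fewest against the JS and most numerous against the EP, where they are still a minority and many lie on the lower right.

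Against the JS, the change of the SM was above that of the JS for 24 genes (0.149% of those tested) and below it for 6 (0.0372%). This count moved from 2 to 107 as single libraries of either tissue were left out, and was 18 with the replicate number as a block. With the number as a block within each stage it was 86. Deviations from the group means of same-numbered SM and JS libraries of a stage were correlated in all 6 pairs (r from 0.21 to 0.62). Over unlike-numbered pairs r ran from -0.595 to 0.536, and SM5 replicate 1 was closer to JS5 replicate 2 (0.536) than to JS5 replicate 1 (0.361). Same-numbered pairs with the AL had r from -0.557 to 0.314, and those with the EP from -0.00474 to 0.283. Cs6g17190 had 4.85, 10.1 and 10.3 FPKM in SM4 and 32.8, 21.7 and 22.03 FPKM in SM5, while the JS went from 28.5 ± 7.06 to 13.3 ± 2.25 FPKM (SD, n = 3). The difference was 2.55 ± 0.40 (adjusted p = 0.029 from limma), or adjusted p = 0.0542 with the block. Cs7g09430 had 6.28, 3.27 and 4.74 FPKM in SM4 and 21.3, 27.7 and 22.2 FPKM in SM5, and its mean was at most 0.248 FPKM at every stage of the JS. Its difference of 2.05 ± 0.30 (adjusted p = 0.0256 from limma) therefore restates its change in the SM (2.13 ± 0.23), and it compares a gene that rose in the membrane with a level close to 0 in the juice sac. Cs2g28140 fell in both tissues, from 11.6, 13.7 and 14.7 FPKM to 2.12, 1.32 and 1.199 FPKM in the SM and from 6.36 ± 0.35 to 3.30 ± 0.36 FPKM in the JS (SD, n = 3). Its difference was -1.73 ± 0.25 (adjusted p = 0.0256 from limma). The calls of these 3 genes were lost in 9 or 10 of the 19 or 20 alternatives run for each, most of them with 1 library left out.

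Against the AL, the change of the SM was above for 255 genes (1.55% of those tested) and below for 244 (1.48%). Of the 390 genes that passed the filter in both tissues, 177 had estimated changes of opposite sign, called or not. Choosing genes by a large difference favours opposite signs. Of the same 390 genes, 88 were called in both tissues, 65 in the SM alone, 229 in the AL alone and 8 in neither. The count of called differences was 273 with the replicate block and 63 with the block within each stage. It lay between 90 and 822 as single libraries were left out. Cs3g25010 had 54.0, 30.01 and 33.0 FPKM in SM4 and 249, 142.5 and 163 FPKM in SM5, while the AL went from 29.2 ± 11.6 to 5.21 ± 1.4 FPKM (SD, n = 3), a difference of 4.46 ± 0.44 (adjusted p = 0.000627 from limma). Cs9g04500 had 84.2, 68.1 and 91.9 FPKM in SM4 and 402, 360.1 and 191 FPKM in SM5, while the AL went from 65.2 ± 8.14 to 15.9 ± 3.63 FPKM (SD, n = 3), a difference of 3.88 ± 0.37 (adjusted p = 0.000627 from limma). In both genes the membrane rose and the albedo fell from similar starting levels. The mean of Cs3g25010 also rose in the JS, from 187 to 661 FPKM, and that difference was not called (0.40 ± 0.32, adjusted p = 0.937 from limma).

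The other 2 genes named against the AL rose in both tissues and more in the AL. Cs6g11310 had 261, 270.3 and 168 FPKM in SM4 and 355, 475 and 515 FPKM in SM5, while the AL went from 36.6 ± 17.4 to 710.0 ± 42.0 FPKM (SD, n = 3), a difference of -3.38 ± 0.39 (adjusted p = 0.00198 from limma). Cs2g12080 had 98.4, 98.6 and 81.8 FPKM in SM4 and 252, 159.5 and 174 FPKM in SM5, while the AL went from 4.93 ± 2.19 to 119 ± 23.2 FPKM (SD, n = 3), a difference of -3.36 ± 0.39 (adjusted p = 0.00198 from limma). At Stage 4 both genes were at a higher level in the membrane than in the albedo, with SM4 means of 233 and 92.9 FPKM.

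Against the EP, the change of the SM was above for 1202 genes (6.85% of those tested) and below for 468 (2.67%). Of the 1004 genes that passed the filter in both tissues, 666 had estimated changes of opposite sign, called or not. Choosing genes by a large difference favours opposite signs. Of the same 1004 genes, 184 were called in both tissues, 308 in the SM alone, 452 in the EP alone and 60 in neither. The count of called differences was 1026 without SM5 replicate 2 and 1111 without SM5 replicate 1. Cs7g03770 had 6.75, 2.47 and 6.12 FPKM in SM4 and 11.3, 23.7 and 9.40 FPKM in SM5, while the EP went from 58.8 ± 23.8 to 5.12 ± 2.34 FPKM (SD, n = 3). The difference was 4.63 ± 0.57 (adjusted p = 0.000381 from limma), although the change within the SM did not pass the test by itself (1.35 ± 0.40, adjusted p = 0.0519). Cs4g09780 had 4.49, 2.27 and 4.03 FPKM in SM4 and 26.1, 85.4 and 46.3 FPKM in SM5, while the EP was at 273 ± 90.6 and then 142 ± 62.1 FPKM (SD, n = 3), a difference of 4.38 ± 0.57 (adjusted p = 0.000554 from limma). Its means in the membrane had been 727, 16.4 and 5.76 FPKM at Stages 1 to 3. The SM5 mean of 52.6 FPKM was a rise from a low at Stage 4 that stayed far below Stage 1, and the SM6 mean was 35.8 FPKM. The gene also rose in the JS (2.06 ± 0.32) and in the AL (2.65 ± 0.39). Its own change in the EP was not called (-0.96 ± 0.34, adjusted p = 0.0643 from limma).

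The remaining 2 genes changed less or in another way in the SM than in the EP. Cs5g19060 had 17.1, 12.1 and 18.6 FPKM in SM4 and 35.5, 26.9 and 39.6 FPKM in SM5, while the EP went from 0.432 ± 0.18 to 31.3 ± 4.95 FPKM (SD, n = 3), a difference of -3.44 ± 0.29 (adjusted p = 5.86e-05 from limma). The 2 tissues thus had similar levels at Stage 5 and unequal levels at Stage 4. Cs5g31570 had 70.1, 29.9 and 131 FPKM in SM4 and 8.42, 10.4 and 7.05 FPKM in SM5, and was at 0.344 ± 0.21 and 0.405 ± 0.16 FPKM in EP4 and EP5 (SD, n = 3). Its difference was -2.86 ± 0.55 (adjusted p = 0.006 from limma). The gene was too low in the EP to be tested there and entered through the SM alone, so this difference restates the change in the SM (-2.80 ± 0.45, adjusted p = 0.0054 from limma). In the AL the gene fell from 108.5 to 13.1 FPKM.

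The 4 genes with the largest fold changes in the SM were set beside the other tissues too. They were chosen for their change in the SM, which enters each difference. Cs6g12880 rose by 2.35 ± 0.19 in the JS, 6.21 ± 0.31 in the AL and 5.30 ± 0.63 in the EP on the log2 scale. Its difference was called against the AL alone (-2.04 ± 0.42, adjusted p = 0.0292 from limma). The difference was next to the threshold against the JS (1.82 ± 0.33, adjusted p = 0.057 from limma) and further from it against the EP (-1.14 ± 0.74, adjusted p = 0.381). At Stage 4 its mean was 45.3 FPKM in the JS, 7.55 in the SM, 2.93 in the EP and 1.12 in the AL. At Stage 5 the means were 237, 149, 134 and 154 FPKM, so the tissue with the lowest starting level had the largest fold change. Cs7g32150 rose by 1.80 ± 0.21 in the JS, 5.69 ± 0.29 in the AL and 2.82 ± 0.21 in the EP. Its difference was again called against the AL alone (-1.83 ± 0.43, adjusted p = 0.0434 from limma). Against the JS it was larger in size and just missed the threshold (2.06 ± 0.37, adjusted p = 0.0582 from limma). Against the EP it was 1.05 ± 0.38 (adjusted p = 0.109 from limma). The adjustment was made separately for each pair of tissues.

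Among the falling genes, Cs5g25690 changed by -4.78 ± 0.29 in the JS, -4.91 ± 0.37 in the AL and -1.77 ± 0.19 in the EP. Its difference was called against the EP (-1.73 ± 0.32, adjusted p = 0.00533 from limma), where 129.8 FPKM remained at Stage 5 against 14.9 in the SM. Cs8g14700 changed by -2.31 ± 0.46 in the JS, -2.42 ± 0.36 in the AL and -2.90 ± 0.39 in the EP. None of its 3 differences was called (adjusted p from 0.377 to 0.853), with values between -0.93 ± 0.61 and -0.33 ± 0.56 that leave room for a difference of more than 1 on the log2 scale.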

How the data were processed

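The authors sequenced poly-A RNA, aligned it with TopHat2, counted it with HTSeq 0.6.1 and deposited 1 table of FPKM values for 30940 genes in 72 libraries; Cufflinks is named too in the submitters' processing notes. By the study's methods the reference was the C. sinensis genome assembled from dihaploid sweet orange. Its build and annotation version were not given in the sources used here. No counts were in the table, and the authors' own tests with DESeq2 were not used. FPKM values of a gene were whole multiples of 1 step per library. Whole fragments were recovered within 0.0001 for 27759 of 27759 genes above 0, giving the depth of each library and, for 99.7% of genes, a gene length that was whole within 0.01 bases. A gene above 0 in only 1 library passes this recovery by construction, so the count is no test of it for such genes.

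Genes that reached an FPKM of 1 in 3 or more libraries of a comparison were tested on log2(FPKM + 1) with limma 3.58.1 (trend and robust) in R 4.3.3, with Benjamini-Hochberg adjustment over all genes tested and a threshold of 0.05. The fit used the 6 SM libraries, or 12 for a difference between tissues. The pseudocount of 1 understates changes of low genes. As an alternative, limma-voom was run on the recovered fragments and called 2791 genes. The scripts were tested on simulated data.

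The members and gene lists were chosen with earlier results of these data known. Genes were named by rule among called genes with a mean of at least 10 FPKM in the higher SM group and no overlap: the 2 highest and the 2 lowest fold changes per comparison. Added to these were the 2 largest rises and falls in FPKM, the 2 highest genes and the 2 highest members of each list. Only 1 gene below the JS met the rule. Lists for sugar transport, cell wall, pigment and other pathways had been drawn up by gene name and could not be used, since no identifier matched a name. No sequence is shown for the same reason.

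The same 9 trees were sampled at every stage by the study's methods. The replicate numbers come from the sample titles. The sources do not state that a number marks the same pool of trees at every stage or the same fruit in every tissue. The main fits used no block for trees, and the replicate block is an alternative. The correlations of deviations from the group means between same-numbered SM4 and SM5 libraries were 0.33, -0.17 and -0.25. Fragments are not independent molecules, since the libraries carried no molecular identifiers, and the p-values measure the spread between pools of fruit.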

Additional observations from a re-analysis of the deposited data

Results flagged for a closer look

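The results here were picked out because the change from Stage 4 to 5 differed between the SM and another tissue by a test of the difference itself (limma, 3 replicates per group), and the values are given without an explanation. The difference was called for 30 genes against the JS, 499 against the AL and 1670 against the EP.

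Against the JS, the change in the SM less that in the other tissue was 2.55 for Cs6g17190, 2.05 for Cs7g09430 and -1.73 for Cs2g28140 on the log2 scale. Against the AL it was 4.46 for Cs3g25010, 3.88 for Cs9g04500, -3.38 for Cs6g11310 and -3.36 for Cs2g12080. Against the EP it was 4.63 for Cs7g03770, 4.38 for Cs4g09780, -3.44 for Cs5g19060 and -2.86 for Cs5g31570. Cs7g09430 was near 0 FPKM in the JS and Cs5g31570 in the EP, so these 2 differences restate the change in the SM, and with the filter applied in each tissue neither gene was tested. The 4 genes named against the AL and the 4 against the EP kept their call in all alternatives run that tested them, those leaving out 1 library included. The calls of the 3 genes named against the JS were lost in 9 or 10 of the 19 or 20 alternatives run for each.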

How the results depend on the processing

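The count of genes called in SM5 vs. SM4 stayed within 1.5 times of 2907 in the 9 alternatives that kept all 6 libraries, from 2413 genes with a filter of FPKM of at least 5 to 3999 in a single fit of the 18 SM libraries, and lay between 1093 and 4610 with 1 library left out. With the replicate number as a block 2841 genes were called, 2508 of them also called without it in the same direction. With limma-voom 2689 of the 2907 genes were called in the same direction.

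Against the JS, 16 genes were called with a pseudocount of 0.1, 49 with no filter, 18 with the replicate block, 86 with the block within each stage, 16 when the filter had to be passed in each tissue and 60 in a single fit of all 24 groups, and between 2 and 107 with 1 library left out. Against the AL, 273 genes were called with the replicate block, 63 with the block within each stage and 959 in the single fit of all 24 groups, and between 90 and 822 with 1 library left out. Against the EP, 805 genes were called when the filter had to be passed in each tissue, and between 1026 and 2354 genes were called with 1 library left out. The alternatives leaving out JS, AL or EP libraries, those with the block within each stage and those with the filter in each tissue were chosen after seeing the data. The replicate block moved no other count by over 1.5 times.

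The median of the EP-enriched genes was 0.78 with a pseudocount of 0.1, 0.10 with no filter, 0.95 with a filter of FPKM of at least 5, 0.79 with limma-voom, and 0.37 or 0.94 with a list threshold of 1 or 3 on the log2 scale, against 0.61. The AL-enriched median was 0.11 with a threshold of 1, against 0.77. The SM-enriched median was 0.38 with a threshold of 3, where 1 gene was left, against -0.56. The late-rising median was 0.90 with median-ratio scaling and 1.47 with a threshold of 2, and the late-falling median was -1.18 with a threshold of 2. With 1 library left out, the medians lay between 0.52 and 0.63 (EP-enriched), 0.45 and 0.95 (AL-enriched), -0.82 and -0.13 (SM-enriched), 0.29 and 0.54 (JS-enriched), 0.74 and 0.81 (late-rising) and -0.79 and -0.63 (late-falling). The causes were not tested.

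The fold changes of the 4 genes with the highest and lowest values in SM5 vs. SM4 kept their calls in all alternatives run. In the single fit of all 24 groups the call of Cs9g07680 was lost (adjusted p = 0.129 from limma). With 3 replicates of pooled fruit and a median standard error of 0.30 or 0.28 for differences against the JS or EP, many differences under 1 on the log2 scale could not be detected.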

Other observations

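The called genes were spread over the identifier groups of the table. The share called was between 17.5% and 20.1% in the 9 groups of identifiers starting Cs1g to Cs9g, the orange1.1t genes and the remaining identifiers. The median length of the genes called higher was 1595.5 bases, against 1858 bases for those called lower and 1746 bases for all tested genes, by the lengths implied in the FPKM values. Among genes called higher whose next identifier was also tested, 10.99% of the next genes were called higher, against 9.25% of the tested Cs genes, and the shares were 13.3% and 9.70% for genes called lower. The longest run of consecutive identifiers called in 1 direction held 4 genes, Cs5g09860 to Cs5g09890, with log2 fold changes between 0.94 and 1.31. This run was noticed after its values were seen, and whether its members are copies that share fragments was not tested.

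Of the 30 genes whose change differed from that in the JS, 21 passed the filter on low values in both tissues. Among these, 10 were called in both tissues, 6 in the SM alone and 5 in the JS alone, and 6 had changes of opposite sign. Another 4 passed in the SM and not in the JS, and 5 in the JS and not in the SM, so their difference rests mostly on the change in 1 tissue. The pseudocount of 1 draws a change near 0 FPKM towards 0, and such a gene can still have changed in the other tissue. The mean of Cs5g13890 went from 0.357 to 0.0149 FPKM in the SM and from 4.51 to 0.513 FPKM in the JS. Its log2 changes were -0.42 and -1.84, and its difference was 1.42.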
